A study of Mus musculus with 6 samples.

Results

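In haploid embryonic stem cells made from the paternal genome of mice (AG-haESCs), 748 cytosines on chromosomes 1 to 19 were methylated at 20% or more in at least 4 of 5 lines while lying under 10% in round spermatids. They are called gained cytosines here, a name for these levels and not for an observed change in time. They were chosen from the 170428 autosomal positions with 10 or more reads in each of the 6 libraries and a level under 10% in round spermatids, and they make up 0.439% of these. In all, 227992 autosomal positions reached 10 reads in every library, of 2091599 positions seen in any library. The level is the percent of reads over a cytosine that kept a methylated call. Since the levels in spermatids and in the lines chose the members, those levels are described below without a test.

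The assay was RRBS, reduced representation bisulfite sequencing, in which genomic DNA is cut with MspI at CCGG and treated with bisulfite, so that CpG-dense sequence is sampled far more than the rest. The 6 libraries, all labelled C57BL/6, came from 2 wild-type (WT) lines, 3 double knockout (DKO) lines and 1 sample of round spermatids from testis. AG-haESCs derive from androgenetic blastocysts and carry only paternal chromosomes. Feeder cells and ES medium were used for all 5 lines, with the addition of 2i, kinase inhibitors that hold ES cells undifferentiated. WT replicates 1 and 2 were taken at passages 31 and 18, and DKO replicates 1, 2 and 3 at passages 32, 31 and 29. The DKO lines are labelled as lacking both the IG-DMR and the H19 DMR, control regions of the imprinted H19-Igf2 and Dlk1-Meg3 domains. The titles of WT replicate 1 and DKO replicate 2 share the name OG3, those of WT replicate 2 and DKO replicate 3 share AGH-2, and DKO replicate 1 is named AGH-4. The labels do not say that the lines came from separate embryos, so the spread behind any p-value is that between these libraries, which may be technical. Total read counts over cytosines were 197728785 to 255726544 per line and 293920118 for spermatids. With 1 spermatid library there is no replicate for that side of the rule, and with no RNA measured the cell types were not checked against marker expression.

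In mammals DNA methylation sits mainly on cytosines of CpG pairs and is written on both strands. CpG islands at gene starts are mostly free of it, while CpGs scattered through genes and between them are usually methylated in sperm and in somatic cells. Male germ cells reach high methylation before meiosis, the paternal genome loses much of it after fertilisation, and ES cells kept in 2i stay at low levels. Germline genes such as those of meiosis and piRNA defence are a known class whose promoters are low in germ cells and become methylated in the embryo, and this class was compared below.

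Of the gained cytosines on chromosomes covered by the promoter table, 11 lay in a RefSeq promoter window, defined as 250 bases before to 50 bases after a gene start. They fell in 7 windows. For 4 of the windows, a stretch upstream of the gene start that defines the window is printed. These stretches show what a gained promoter cytosine looks like, since sequence of the build was at hand only for promoter windows. Capitals mark each gained CpG, and all 4 are plus-strand RefSeq sequence of build GRCm38.p6, the same assembly as mm10.
Tsks, chr7:44943166-44943239: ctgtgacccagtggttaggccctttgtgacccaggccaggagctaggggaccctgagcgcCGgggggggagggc
Tnfsf13b, chr8:10006217-10006281: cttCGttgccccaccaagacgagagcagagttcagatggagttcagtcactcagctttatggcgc
4930449C09Rik, chr15:63718243-63718347: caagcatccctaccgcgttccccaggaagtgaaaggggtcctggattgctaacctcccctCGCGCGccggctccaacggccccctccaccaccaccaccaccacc
4930522O17Rik, chr4:53246089-53246195: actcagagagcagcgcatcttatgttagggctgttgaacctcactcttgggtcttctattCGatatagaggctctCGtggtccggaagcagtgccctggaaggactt

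Tsks encodes a substrate of testis-specific serine kinases and Tnfsf13b the B-cell survival factor BAFF, while the other two are unnamed transcripts. All 11 gained cytosines in promoter windows were CpG cytosines in the RefSeq sequence, as were all 33598 positions in such windows with 10 reads in every library. Every one of the 7 windows held CCGG, the MspI recognition sequence that RRBS selects, against 53.5% of all 31396 windows. This counts the whole window of 300 bases, and the printed stretch of Tnfsf13b does not reach its CCGG. The E-box CACGTG, which reads the same on both strands, was in none of the 7 and in 7.14% of all windows. A match or its absence describes only the letters of these windows.

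Levels at the gained cytosines were intermediate and uneven between lines. The mean over the 748 was 51.5% in WT replicate 1, 36.5% in WT replicate 2, 41.5% in DKO replicate 1, 47.9% in DKO replicate 2 and 42.5% in DKO replicate 3, and 0.808% in spermatids. The mean of the 5 lines was 44.0% ± 5.84 (SD, n = 5). Over all 170428 positions low in spermatids, the same libraries averaged 2.14%, 0.970%, 1.19%, 1.83% and 1.23%, and 0.111% in spermatids. WT replicate 1 and DKO replicate 2 were thus the highest lines both at the gained cytosines and over the whole set, and WT replicate 2 the lowest in both.

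**Figure D1:**
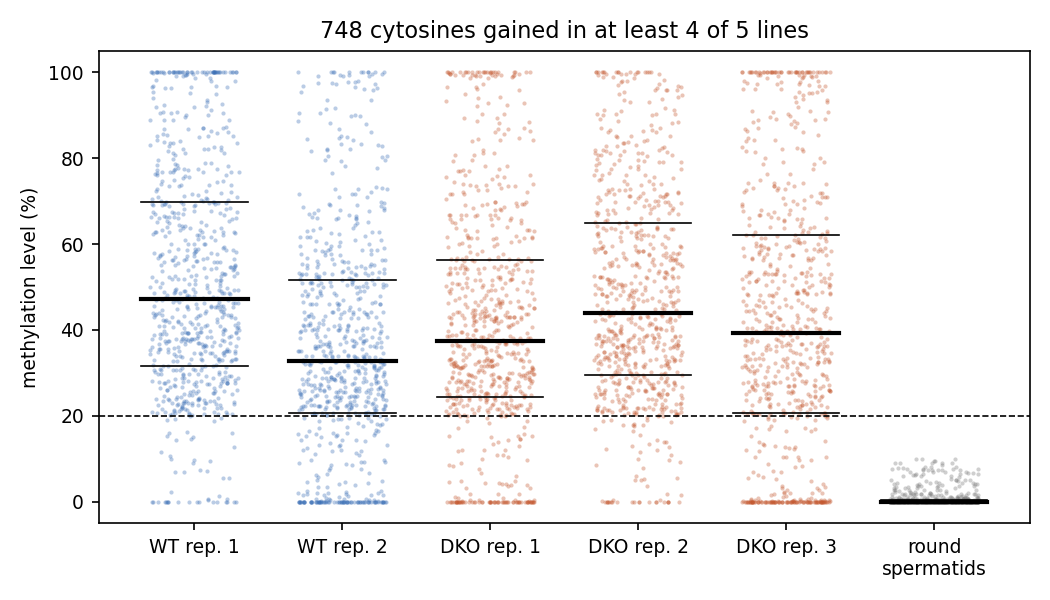
Methylation level (%) of each of the 748 gained cytosines in the 5 AG-haESC lines and in round spermatids. Points are cytosines, thick bars medians and thin bars quartiles, and the dashed line is the 20% limit used to choose them. Medians run from 32.8% to 47.2% in the lines and stand at 0% in spermatids.

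Single cytosines varied far more between lines than these means do. The SD over the 5 lines at 1 cytosine had a median of 24.4 percentage points, and at 207 of the 748 the highest and lowest line were more than 80 points apart. Only 176 members were at 20% or more in all 5 lines, and the other 572 had 1 line below it. The line below was WT replicate 2 at 173 of them, DKO replicate 3 at 173, DKO replicate 1 at 119, DKO replicate 2 at 59 and WT replicate 1 at 48. Many of these were not near misses, since 18 to 87 members per line had no methylated read in that line. Within the 5 lines, 57 members were at 30% or more in every line, 13 at 50% or more and 1 at 80% or more. Across the 748 cytosines, Pearson's r between pairs of lines ran from -0.0767 to 0.133, against 0.251 to 0.417 over all positions low in spermatids. These correlations are across cytosines of the same libraries, the rule narrows the range of levels among members, and they carry no test.

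**Figure D2:**
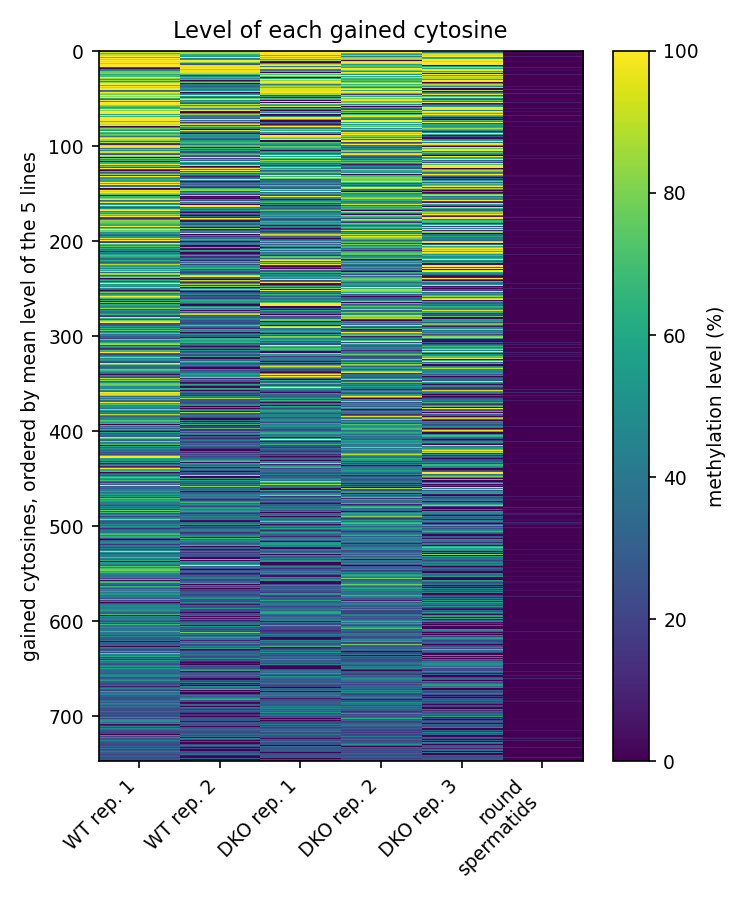
Methylation level (%, colour) of the 748 gained cytosines, 1 horizontal line each, ordered by their mean over the 5 lines, with libraries in columns. Lines alternate between high and low at neighbouring ranks, and the spermatid column stays under 10% throughout.

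How well 4 lines foretold the remaining one was read from the library that was left out. WT replicate 1 was at 20% or more at 176 of the 224 cytosines where the other 4 lines were, or 78.6%, and DKO replicate 2 at 176 of 235, or 74.9%. DKO replicate 1 reached 59.7% of 295, and WT replicate 2 and DKO replicate 3 each reached 50.4% of 349. Over all positions low in spermatids, the share at 20% or more was 3.78% in WT replicate 1, 3.31% in DKO replicate 2, 2.12% in DKO replicate 1, 2.19% in DKO replicate 3 and 1.75% in WT replicate 2. Where the other 4 lines were all under 20%, the line left out reached it at 0.582% to 1.68% of positions. A line left out was thus far more often methylated where its 4 counterparts were than elsewhere, though 8.04% to 24.9% of these cytosines had no methylated read in it.

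On the spermatid side, 466 of the members, or 62.3%, had no methylated read, 623 were at 1% or less, and 48 lay between 5% and 10%. A count of 0 allowed a true level of up to 1.82% at the median depth of those 466, taking 3 counts as the limit, and up to 30% at the shallowest with 10 reads. Of the deepest members at 0%, those 248038 bp from Gm25457 and 93310 bp from Gm39809 lay far from genes. Another lay 4824 bp outside Pcnt, which encodes the centrosome protein pericentrin. That cytosine lay before the start of the predicted gene 2610028H24Rik, which was nearer to it than Pcnt. The Pcnt cytosine (chromosome 10, 76447736) had levels of 29.3%, 32.1%, 28.9%, 24.0% and 23.5% in WT replicates 1 and 2 and DKO replicates 1 to 3. All 5 lines were close together there, with an SD of 3.69 points. The highest spermatid levels were 9.93% at 59898 bp from Brinp1, 9.87% in Trpm4 and 9.84% in Carmil2, just under the limit of 10%.

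The limit of 20% also cut through a continuum. Just inside it, the fourth highest line stood at 20% at cytosines in or near Plxnc1, Foxa1 and Pdzd2. Just outside, it stood at 19.9% at Cyp4a28-ps and Trpm4 and at 19.8% at 4930458A03Rik. A level of 20% had a 95% Wilson interval from 5.67% to 50.98% at 10 reads and from 15.5% to 25.4% at 250 reads, and these intervals cover counting error only, since reads amplified by PCR with no molecular identifiers can copy 1 molecule. The median depth of members was 231.5 to 301 reads per library. Gained cytosines were 0.672% of positions whose shallowest library had 10 to 19 reads, 0.755% at 20 to 49, 0.555% at 50 to 99 and 0.328% at 100 or more. The 370 members with at least 100 reads in every library made up 49.5% of them.

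Gained cytosines lay away from gene starts and from stretches dense in measured positions. Only 14 of the 50692 low positions within 200 bp of a RefSeq gene start were gained, or 0.0276%, and 52 of 52607 from there to 1 kb, or 0.0988%. The share was 0.473% from 1 to 5 kb, 1.15% from 5 to 20 kb and 1.29% beyond, where 369 members lay. The median distance to the nearest start was 22584 bp for members against 454 bp for all low positions. Of the members, 21.9% (164) lay within 1 kb of either end of a gene and 56.4% (422) inside a gene, against 70.2% and 82.2% of low positions. Outside genes, 54 members were more than 50 kb from any gene end, or 7.22% against 0.536%. Exon and intron boundaries were not used here, so a position inside a gene may be either.

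The same order held for density, counted as other positions within 100 bp that had 10 reads in all 6 libraries. This count depends on coverage, and the CpG density of the sequence was not measured outside promoter windows. Promoter windows with a member held 5 to 15 CpGs, against a median of 7 over all windows. With no other measured position, 142 of 5227 low positions were gained, or 2.72%. With 1 to 2 others the share was 1.49%, with 3 to 5 it was 0.464%, with 6 to 9 it was 0.0628%, and with 10 or more it was 3 of 43657, or 0.00687%. Each feature also went with the share inside classes of the other. Within 1 kb of a start, 45 of 11607 positions with at most 2 others were gained and 0 of 64619 with at least 6 others. Farther from a start, 434 of 16492 sparse positions were gained, or 2.63%, and 32 of 27378 dense ones, or 0.117%. Positions at 20% or more in exactly 1 line stood between members and the whole set, with 35.2% within 1 kb of a gene end and a median distance of 8500 bp from a start.

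**Figure D3:**
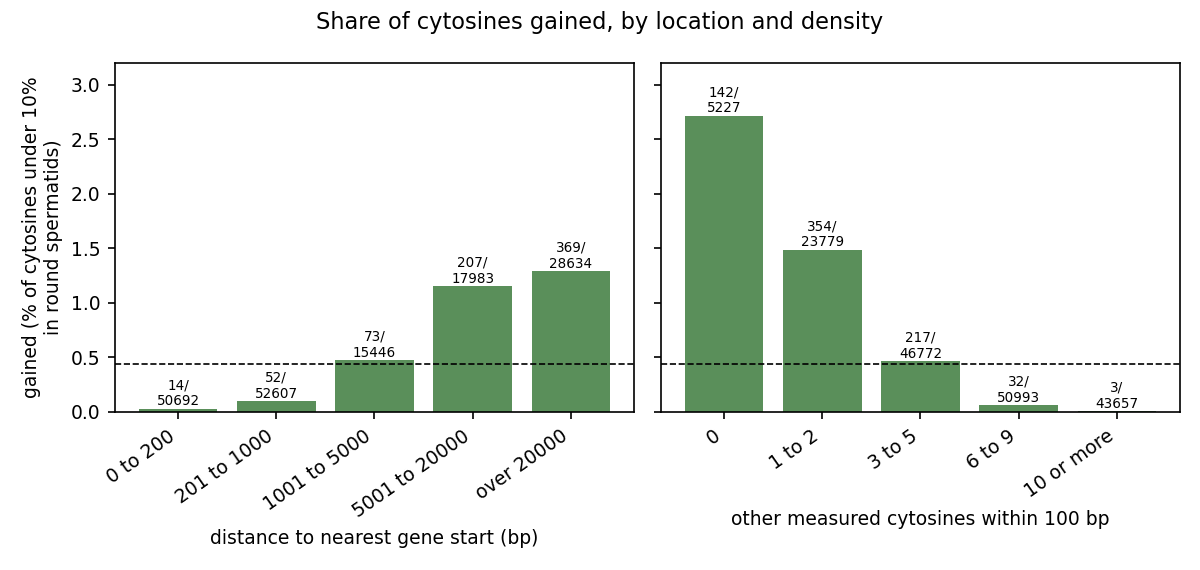
Share of positions low in round spermatids that were gained (%), by distance to the nearest gene start (left) and by number of other measured cytosines within 100 bp (right). Numbers over the bars are gained over all low positions in the class, the dashed line is 0.439%, and chromosome 18 is not in the left panel. The share runs from 0.0276% to 1.29% on the left and from 2.72% to 0.00687% on the right.

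In the stretches printed above, the gained CpG of Tnfsf13b (chromosome 8, 10006220) lay 247 bp before the start that defines its window. It lay 9 bp outside the gene as annotated. Its levels were 36.1% and 24.5% in the WT lines and 18.8%, 60.1% and 53.2% in the DKO lines, with 0% in spermatids. The 3 adjacent CpGs of 4930449C09Rik were not alike in every line. At the first 2 of them WT replicate 2 stood at 20.7% and 20.4%, and at the third, 2 bp on, at 0.283%, on 353 reads or more in every library. Both CpGs of 4930522O17Rik were at 0% in WT replicate 2 and between 21.6% and 58.1% in the other lines, on as few as 21 reads. In windows not printed, Cav3, the caveolin of muscle, had a gained cytosine 37 bp after its start (chromosome 6, 112459542), with levels from 10.9% in DKO replicate 2 to 73.7% in WT replicate 1. A cytosine inside Pdx1, a transcription factor gene of pancreas, lay in the window of the antisense transcript Plut and ran from 0.188% in DKO replicate 3 to 99.2% in DKO replicate 2.

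The 19 autosomes held gained cytosines at shares from 0.268% on chromosome 11 to 0.724% on chromosome 13. No chromosome was without them. Of 15717 genes with a low position inside them or within 1 kb of an end, 443 had a gained cytosine there. Exactly 1 was counted at 369 of these. A cytosine shared by overlapping genes counts for each of them, as 1 does for Pcdha1 to Pcdha12.

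Most gained cytosines had no other gained cytosine near them among the positions measured. With gaps of at most 500 bp, 550 formed no run, 72 pairs were found, and 14 runs held 3 and 3 runs held 4. Another member lay within 100 bp of 173 of them, or 23.1%. Of low positions, 95.8% had another low position that near. At 142 members no other measured position lay within 100 bp, so a member that near could not have been seen. Among cytosines 1 to 10 bp from a member, 21.5% were members too, against 0.105% of those beside a low position. Low positions lay in denser stretches, where few were gained, and these shares were not matched for density.

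Of the 3 runs of 4, the one with the highest mean level lay inside Sdccag8, which encodes a centrosome protein of ciliated cells, at positions 176899737 to 176899756 of chromosome 1. There 4 of 5 measured cytosines were gained. Run means were 39.0% and 55.1% for WT replicates 1 and 2, 42.3%, 76.8% and 97.2% for DKO replicates 1 to 3, and 1.57% in spermatids. DKO replicate 3 was nearly full there and the other lines were partial. A run of 4 of 4, 15919 bp from Gm30145 (chromosome 10, 111394384 to 111394415) had line means from 24.4% to 86.8%, and a run of 4 of 5, 30386 bp from Gm13172 (chromosome 4, 152647057 to 152647076) had 24.7% to 77.7%.

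Of the 14 runs of 3, one lay inside Grin2b, which encodes an NMDA receptor subunit. There 3 of 4 cytosines at 135732405 to 135732663 of chromosome 6 had means of 82.6% and 33.8% in the WT lines and 25.2%, 78.4% and 66.5% in the DKO lines, with 0% in spermatids. These lie just upstream of the predicted gene Gm14329, whose promoter window holds 2 of them. Inside Atxn1, the gene of the polyglutamine protein ataxin 1, a run of 3 held every cytosine measured in its 59 bp, of 41 low positions in the gene, with means from 34.99% in WT replicate 2 to 77.2% in WT replicate 1. Dnajc6, which encodes the clathrin-uncoating factor auxilin, ran from 9.26% in DKO replicate 3 to 78.2% in WT replicate 1. A run 3029 bp from Tlx3, a homeobox gene of sensory neurons, ran from 15.7% to 82.3%.

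The gene with most gained cytosines was Lmtk3, which encodes a membrane kinase, with 5 of its 49 low positions and means of 57.6%, 33.3%, 43.3%, 49.7% and 41.3% in WT replicates 1 and 2 and DKO replicates 1 to 3. Sdccag8 had 4 of 8 and Synpo 4 of 52. Dapk1, the gene of a death-associated kinase, had 3 of 13, with line means between 42.0% and 52.9%, although 1 of the 3 ranged from 0.277% in DKO replicate 3 to 84.5% in WT replicate 2. Wwox, a large gene that spans a fragile site, had 3 of 15, with 9.33% in DKO replicate 1 and 48.6% to 75.7% in the other lines. Mmgt2, Nedd4l and Pdzrn4 had 3 each. Long genes hold more positions, so these counts stand beside the number of positions each gene offered.

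The cytosines with the highest level in their lowest line came closest to uniform gain. At position 21727056 of chromosome 10, 33078 bp outside Gm5420, the lines stood at 100%, 99.6%, 94.0%, 99.5% and 95.5% with 0% in spermatids and at least 72 reads. This was the 1 member at 80% or more in every line. Inside Tmem119, known as a microglial gene, the lines were at 91.9%, 61.5%, 72.2%, 81.3% and 93.1% at position 113795472 of chromosome 5, where the shallowest library had 13 reads. At Errfi1, which encodes a feedback inhibitor of the EGF receptor, position 150854012 of chromosome 4 lay 216 bp after the gene start and had 88.8%, 53.1%, 64.8%, 81.6% and 100%, with as few as 14 reads. Also among the 10 highest were a cytosine inside Gm36286 and the Grin2b cytosine above. Others lay outside the genes they are named by, 62 bp from Gm8276, 6738 bp from Spata46, 10779 bp from Letmd1 and 16202 bp from Gm26808. The one by Spata46 lay inside the predicted gene Gm7694, and the one by Letmd1 inside 5330439K02Rik. The lowest lines of these cytosines stood between 52.4% and 69.3%.

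Germline genes held about the same share of gained cytosines as of low positions, though this rests on few cytosines and moved with the number of lines asked for. Of 87 listed genes of meiosis and germ cells, 42 had a low position inside or within 1 kb, 446 positions in all. Of these, 2 were gained, or 0.448%, against 0.439% of all low positions. For any gene counted in the same way the share was 0.291%, below the germline share, again on 2 germline cytosines. Germline genes took 0.267% of members and 0.262% of low positions. Counted only within 1 kb of a gene end, they had 2 of 358, or 0.559%, against 164 of 119716, or 0.137%, for any gene, a difference that rests on 2 cytosines. With at least 3 of 5 lines asked for in place of 4, 15 of the 446 germline positions were included, or 3.36% against 1.34% of all low positions, and germline genes took 0.656% of the 2285 cytosines. Those 15 lay in 9 genes, with 5 at Dazl, which encodes an RNA binder required in germ cells, 3 at Meioc, and 1 each at Asz1, D1Pas1, Fkbp6, Hormad1, Sohlh2, Sycp3 and Tex101. Neither share was tested, and cytosines of 1 gene share their surroundings. When 1 line was left out and 3 of the remaining 4 were asked for, germline genes took 0.437% to 0.687% of the cytosines, against 0.253% to 0.268% of low positions.

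Those 2 lay near Meioc, which sustains meiotic prophase, and in Sohlh2, a transcription factor of spermatogonia and oocytes. The Meioc cytosine (chromosome 11, 102664852) lay 733 bp before the start and had 54.5% and 43.2% in the WT lines, 43.7%, 33.2% and 35.1% in the DKO lines, and 0% in spermatids. All 5 lines were above 30% there. The Sohlh2 cytosine (chromosome 3, 55182611) lay 567 bp after the start and had 27.6%, 41.7%, 0%, 32.3% and 56.3%, and 0% in spermatids. DKO replicate 1 had no methylated read there. None of the 11 promoter-window members belonged to a listed germline gene. Germline genes held 0.262% of low positions, so with 11 members this count of 0 says nothing of the class.

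Among late spermatid genes, 1 of 265 low positions was gained, or 0.377%, against 0.291% for any gene counted in the same way. It lay inside Spata16, a gene of acrosome formation, with 33.7%, 50.8%, 99.5%, 36.2% and 0%. Tsks, not on that list, had a gained cytosine 13 bp before the start that defines its window, inside the gene as annotated (chromosome 7, 44943227). Its levels were 58.4% and 31.4% in the WT lines, 0%, 32.3% and 22.4% in the DKO lines and 0.0574% in spermatids. The cytosine on the other strand of the same CpG had at least 10 reads in WT replicates 1 and 2 and DKO replicates 2 and 3, and it stood at 0%, 0%, 0.284% and 0% there. The 2 strands of this promoter CpG thus differed in all 4 lines with a value for both.

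None of 276 positions at pluripotency genes, 216 at trophoblast genes, 200 at genes of testis somatic cells and 203 at housekeeping genes was gained. At 0.291%, the share for any gene counted in the same way, lists of this size would hold about 1 or none, so these counts of 0 say nothing of the classes. A single position of 97 at feeder fibroblast genes was, inside Fap, a fibroblast protease, with 27.7%, 81.7%, 42.9%, 41.4% and 0%. The share of feeder cells in the line libraries was not measured. Among methylation enzymes and readers it was 1 of 221, inside Tet3, a 5-methylcytosine oxidase, with 96.8%, 33.8%, 100%, 53.3% and 0% and 4.07% in spermatids.

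Imprinted genes had 2 gained cytosines of 601, or 0.333%, close to the 0.291% for any gene. The one inside Meg3, the maternally expressed noncoding RNA of the domain that the IG-DMR controls (chromosome 12, 109549824), had 36.8% and 33.0% in WT lines, 25%, 89.1% and 57.7% in DKO lines and 0.172% in spermatids. WT and DKO lines overlapped there. The one inside Peg3, a paternally expressed zinc-finger gene (chromosome 7, 6711589), had 36.3%, 52.3%, 26.9%, 44.2% and 2.14%, with 0% in spermatids and at least 784 reads.

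Developmental regulators offered 4146 low positions, of which 7 were gained, or 0.169% against 0.291% for any gene, at Foxa1, Hoxa3, Nkx2-2, Sox10, Tbx2 and Tbx4. These are transcription factors of endoderm, pharyngeal arches, ventral neural tube, neural crest and limb. Tbx2 had 33.1% and 0% in WT lines and 52.9%, 75.7% and 88.2% in DKO lines, and Tbx4 had 1.36% and 21.8% against 55.9%, 33.6% and 60%. All 3 DKO lines lay above both WT lines at these 2 and at Sox10. The DKO lines did so at 8.69% of all members and at 3.78% of all cytosines fitted, and the rate for lines in random order was not computed. By edgeR, the adjusted p was 0.951 at Tbx2, Tbx4 and Sox10. The groups overlapped at Foxa1, Hoxa3 and Nkx2-2. The Sox10 cytosine rested on as few as 11 reads. Chemosensory receptor genes offered 116 low positions and had 7 gained, or 6.03%, against 0.439% of all low positions and 2.63% of sparse ones over 1 kb from a start. Of the 7, 3 lay within 41 bp in Taar4, a trace amine receptor of the nose. The Taar4 run (chromosome 10, 23960896 to 23960936) had means of 38.8% and 28.5% in WT lines, 54.8%, 44.7% and 62.9% in DKO lines and 0.0821% in spermatids, with at least 733 reads. The other 4 lay in the vomeronasal receptors Vmn2r75 (2 of them), Vmn2r77 and Vmn2r-ps94. Receptors of such families resemble each other in sequence, and whether reads could be placed uniquely was not tested.

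**Figure D4:**
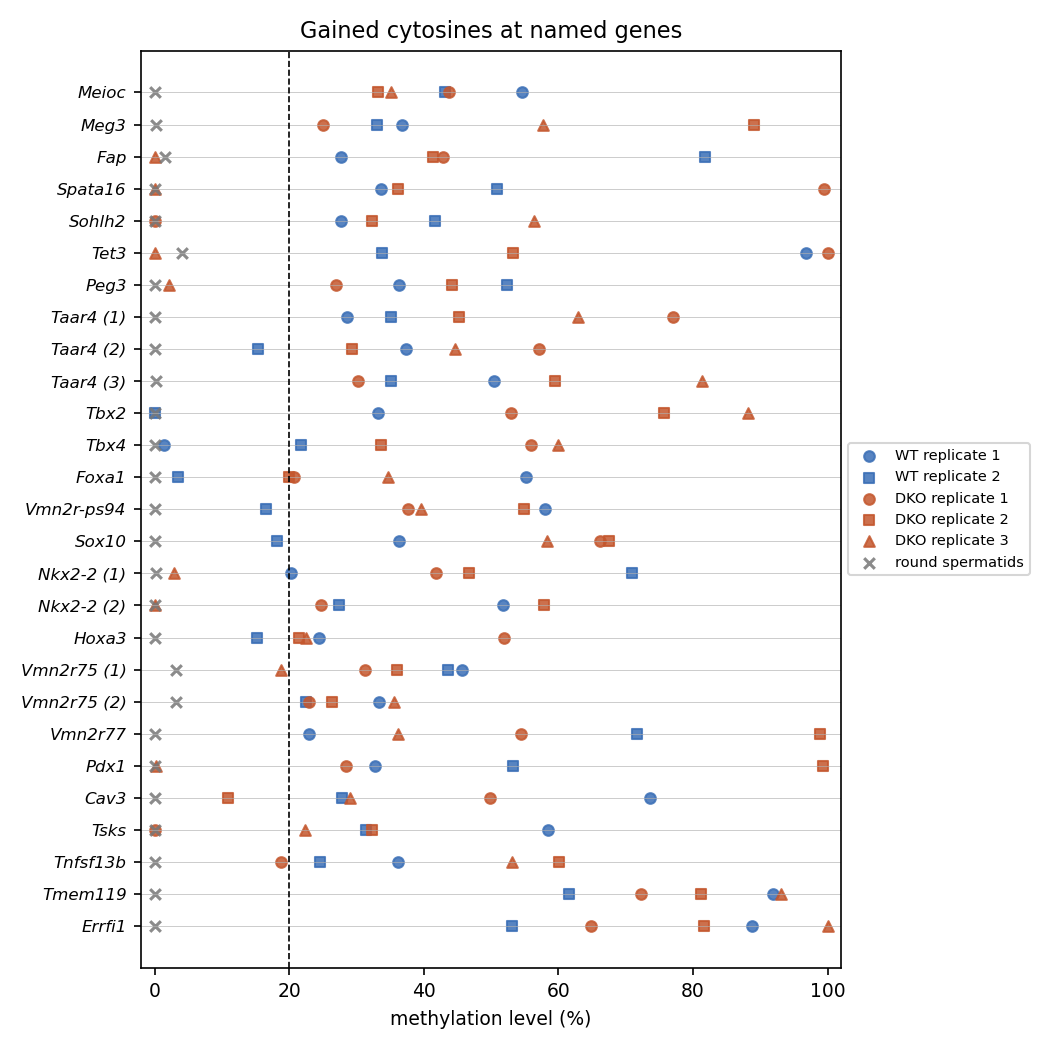
Methylation level (%) of gained cytosines at named genes, with WT lines in blue, DKO lines in red and round spermatids as grey crosses, and the 20% limit dashed. Numbers in brackets count cytosines of 1 gene. Spermatids stay under 5% at all of them, while single lines reach 0% at several genes, Sohlh2 and Tet3 among them.

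The surroundings of gained cytosines were themselves partly methylated, in the lines and in spermatids. Measured cytosines 1 to 10 bp away averaged 31.2% ± 6.74 (SD, n = 5 lines), those 51 to 100 bp away 17.9% ± 7.60, and those 1 to 5 kb away 8.17% ± 1.94. Around all low positions the same averages were 0.581% ± 0.189, 0.453% ± 0.162 and 2.96% ± 0.861. Around members, neighbours that were members themselves are included, 21.5% of those at 1 to 10 bp and 3.70% at 51 to 100 bp. The rule chose these for their levels in the lines, so part of the height near members is built in. In spermatids, the neighbours of members averaged 20.2% at 1 to 10 bp and 22.1% at 51 to 100 bp, against 0.439% and 0.483% around all low positions. Of the 606 members with another measured cytosine within 100 bp, the nearest one stood over 90% in spermatids at 96, or 15.8%, against 0.661% for all low positions. Low positions lay in denser stretches and nearer gene starts, and no comparison in this paragraph was matched for that. At these 96, a cytosine low in spermatids stood beside one that was almost fully methylated in the same library. At 420 others, or 69.3%, the nearest cytosine was under 10% in spermatids too. At 114 of these it was a member, and so low by the rule.

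**Figure D5:**
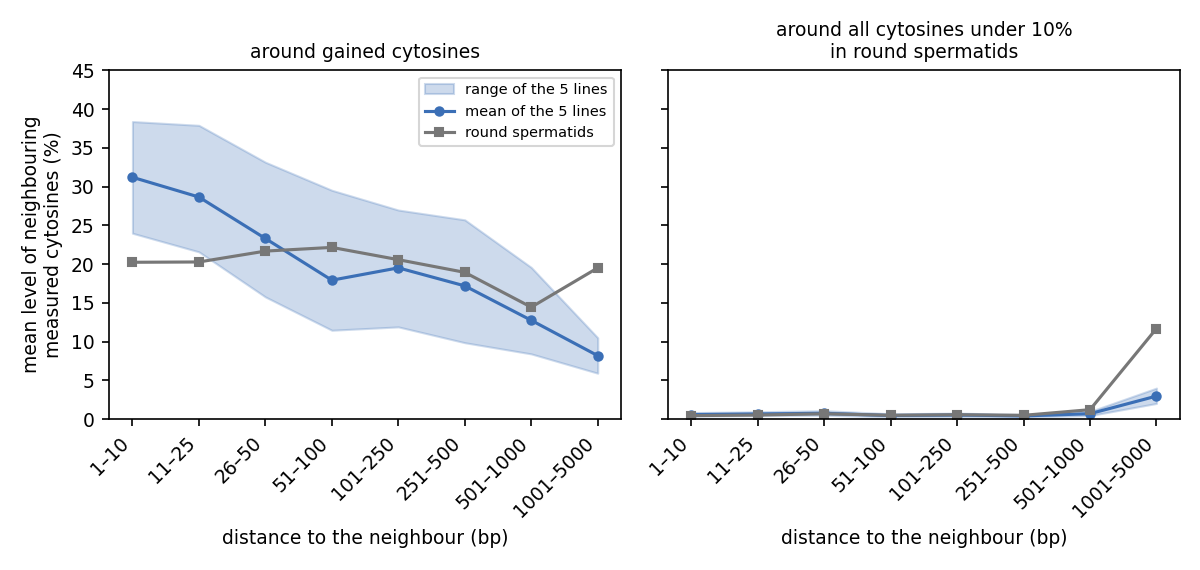
Mean methylation level (%) of measured cytosines by distance from a gained cytosine (left) or from any cytosine under 10% in round spermatids (right). The blue line is the mean of the 5 lines, the band their range, and grey squares are spermatids. Near gained cytosines the lines go from 31.2% at 1 to 10 bp to 8.17% at 1 to 5 kb, while spermatids stay between 14.4% and 22.1%. Neighbours that are gained themselves are included on the left, 21.5% of those at 1 to 10 bp.

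The opposite cytosine of the same CpG gave a second reading. It was seen in some library for 72 of the 748 members, and with 10 reads or more for 24 to 31 of them per library. There the partner averaged 42.9% in WT replicate 1, 17.7% in WT replicate 2, 25.2% in DKO replicate 1, 25.1% in DKO replicate 2 and 35.6% in DKO replicate 3. The members of those pairs averaged 41.1% to 50.9% in the lines. In the lines, the partner was under 10% at 33.3% to 67.9% of pairs. In spermatids, the partner stood at 50% or more at 7 of 28 pairs, or 25%, against 2.32% around all low positions. The low positions were not matched to members for density or place. Both cytosines of a CpG were gained only at positions 147127319 and 147127320 of chromosome 6. This pair lay more than 1 kb outside Klhl42, its nearest named gene, which encodes a ubiquitin ligase adaptor. There the first stood at 82.0% in DKO replicate 2 and 0% in DKO replicate 3, and the second at 0% and 56.2%, so that the strands were opposite in these lines. In WT replicates 1 and 2 and DKO replicate 1 both were at 73.4% or more. The cause of these differences between strands was not tested.

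DKO and WT lines were compared to see whether deletion of the H19 DMR and IG-DMR moved with the level of gained cytosines. The rule read the same 5 libraries and let at most 1 line be under 20%, which limits in advance how far the groups can differ at a member, so the values below are a description. The mean over members was 44.0% ± 10.6 (SD, n = 2) for the WT lines. It was 44.0% ± 3.44 (SD, n = 3) for the DKO lines, so the means differed by 0.0101 points, which lies within the spread of either group. A quasi-likelihood test on methylated and unmethylated counts (edgeR) was run over the 142691 cytosines that varied between lines. It called 0 of them at an adjusted p under 0.05, or 0%, and 0 of the 748 members, with a lowest Benjamini-Hochberg adjusted p of 0.951. At an unadjusted p under 0.05 there were 2844 of all, or 1.99%, and 4 members, or 0.535%. limma on log ratios also called 0, with 5585 of all and 20 members at an unadjusted p under 0.05. With the shared line names OG3 and AGH-2 as a block, 2 of the 142691 were called and none of the members.

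Single members did separate by group without passing the test. All 3 DKO lines were above both WT lines at 65 members, or 8.69%, against 3.78% of all cytosines fitted, and below both at 54, or 7.22%, against 5.43%. The rule used these libraries and members vary far more between lines than the rest, with a median absolute difference between groups of 16.1 points against 0.914. The fitted cytosines differed little between groups at the median, so their shares need not be the rate that lines in random order would give. That rate was not computed, and whether members separated by group more often than it was not tested. These shares are a description. The largest difference downward was at a cytosine inside Cpa6, a carboxypeptidase gene (chromosome 1, 10345186). Both WT lines stood at 100% there, and DKO replicates 1 to 3 at 0%, 27.7% and 37.6%, with an unadjusted p of 0.0129 and an adjusted p of 0.951 by edgeR. In spermatids the member was at 0.465% and the opposite cytosine of its CpG at 100% with 267 reads. At 22466 bp from Cspg4b, levels were 99.9% and 99.6% in WT lines and 55.1%, 55.1% and 0.568% in DKO lines. The other 3 of the 5 largest lay 180392 bp from LOC115489629, 91581 bp from Gm22448 and 768 bp from Gm31455, with differences of -71.6, -63.0 and -62.6 points. A cytosine 39673 bp from Gm33780 was the remaining member with an unadjusted p under 0.05.

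In the other direction, Klrg1, a receptor of lymphocytes, had 0.524% and 26.5% in WT lines and 45.1%, 73.9% and 99.2% in DKO lines. Mta3, a subunit of a chromatin remodelling complex, had 24.8% and 9.34% against 66.7%, 61.1% and 100%, and Wls, the carrier of secreted Wnt proteins, had 14.3% and 26.7% against 100%, 66.9% and 67.4%. The Wls cytosine rested on as few as 21 reads. Gm40640 differed by 60.6 points and a cytosine inside Zbtb7c by 61.4. None of these had an adjusted p below 0.951 in the edgeR fit.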

How the data were processed

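The RRBS libraries of the 5 lines and of round spermatids were analysed. Per the labels' protocols, DNA was cut with MspI, joined to methylated adapters, size-selected on agarose, bisulfite-treated and amplified. Bismark 0.12.2 and the build mm10 are named per the submitters' processing notes. How reads were trimmed, whether duplicates were removed and which cytosine context was kept is not given in the sources used here. The deposited files give, for each position, the methylated and the unmethylated read count and the level as a fraction, and the fraction matched the counts at every position within 1e-09. Strand is not given beside a position.

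Levels were recomputed from the counts as percents. Positions on chromosomes 1 to 19 with at least 10 reads in all 6 libraries were kept. Genes came from the RefSeq gene table of GRCm38.p6, the assembly also named mm10, and gene starts and sequences from its promoter windows, where chromosome 18 was not used here. A position was assigned to a gene if it lay inside it or within 1 kb of an end. Its nearest gene was the one that holds it or has the nearest end, with predicted symbols used only where no other gene was within 50 kb. A cytosine named by such a gene can therefore lie inside or nearer to a predicted gene. Opposite cytosines of a CpG were taken as neighbouring positions.

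Genes named are those of the 12 runs with most members (gaps of at most 500 bp, at least 3 members), the 10 members highest in their lowest line, listed genes with a member, the 10 genes with most members, the 5 largest non-overlapping differences between DKO and WT in each direction, and members at the edges of the rule. Genes of promoter windows, Klhl42 and the germline genes met by the looser rule were added after their values were seen. One gene that the rule names is not reported here. The members and all gene lists were chosen with earlier results of these data known. All listed symbols matched the gene table (germline 87, spermatid 50, pluripotency 25, developmental regulators 202, methylation machinery 19, chemosensory receptors 2112, trophoblast 22, feeder fibroblast 17, testis somatic 14, housekeeping 16) except among imprinted genes, where 44 of 45 did.

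DKO and WT lines were compared with edgeR 4.0.16 (glmQLFit and glmQLFTest, common dispersion, 1 term per library) with Benjamini-Hochberg adjustment over all cytosines fitted, and with limma 3.58.1 as an alternative, in R 4.3.3. Other steps used Python 3.11.15, pandas 2.3.3, numpy 2.4.6, scipy 1.17.1 and matplotlib 3.10.9. The fits were tested on simulated data. Alternatives moved the read minimum, both limits of the rule, the number of lines, the distances, the dispersion and a block of shared line names, and left out each line.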

Additional observations from a re-analysis of the deposited data

Results flagged for a closer look

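The run of 3 gained cytosines in Synpo, which encodes an actin-binding protein of kidney and neurons, had 1 line far from the others. WT replicate 2 stood at 13.1%, while WT replicate 1 was at 41.6% and DKO replicates 1 to 3 at 44.7%, 50.2% and 53.0%. Spermatids were at 7.34% there. Of 22 sets of 5 lines checked in this way, this 1 stood out. The rule lets 1 line be under 20% at a member and asks for 20% or more in the others. A single low line is thus partly built in, and no chance rate applies to it.

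Chromosome X was outside the rule. There, 26 of 3839 positions low in spermatids met the same limits, or 0.677%, with a mean over the 5 lines of 48.7% ± 8.13 (SD, n = 5) and 0.861% in spermatids.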

How the results depend on the processing

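The number of gained cytosines was 176 with all 5 lines asked for, 2285 with at least 3, and 370 with at least 100 reads in every library, a minimum chosen after seeing the data. Leaving out 1 line at a time and asking for 3 of the remaining 4 gave 1145 to 1740, a looser rule by its own construction, and all 748 were among them each time. The share with another member within 100 bp was 19.3% with lines at 25% or more, 14.2% with all 5 lines, 33.6% with at least 3, 26.5% within 500 bp and 25.8% to 30.7% with 1 line left out. The share within 1 kb of a gene end was 25.6% with all 5 lines and 30.9% within 2 kb. With 1 line left out it was 20.8% to 22.9%. DKO minus WT was 7.29 points without WT replicate 1 and -9.31 without WT replicate 2, its range with 1 line left out, so its sign rested on which WT line was used. Over all cytosines, the replicate block by line name, possible for the OG3 and AGH-2 pairs, called 2 (1 higher and 1 lower in DKO), and leaving out 1 line called 0 to 1, the 1 without DKO replicate 2. Members called stayed at 0 in all 9 alternatives run. The cause of these moves was not tested. Depth limited single levels most at the 78 members whose shallowest library had 10 to 19 reads.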
